A study of Mus musculus with 9 samples.

Results

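The proneural and neuronal differentiation factors of the basic helix-loop-helix (bHLH) family were followed in the midbrain of mouse fetuses in which Gpr161, a ciliary G protein-coupled receptor that restrains Shh signaling, had been deleted in the Wnt1 lineage. Of the 21356 gene symbols in the table of expression values, 9 were chosen by name for their known function. The 3 early factors were Neurog1, Neurog2 and Atoh1, and the 6 late factors were Neurod1, Neurod2, Neurod4, Neurod6, Bhlhe22 and Nhlh1. All 9 were listed, in 1 row each, and all 9 lay above the minimum on low values that left 14029 genes for testing. The line between early and late follows general knowledge, since Neurod4 and Nhlh1 are also switched on as progenitors leave the cell cycle.

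RNA-seq was performed on E13.5 midbrain tissue of 9 C57BL/6 fetuses, 3 per genotype. The floxed control carried 2 floxed Gpr161 alleles and no Cre (Gpr161 f/f), the Cre control 1 floxed allele with the Wnt1-Cre transgene (Gpr161 f/+;Wnt1-Cre), and the Gpr161 cKO 2 floxed alleles with Wnt1-Cre (Gpr161 f/f;Wnt1-Cre). Every fetus thus carried at least 1 floxed allele, and only the floxed control lacked Cre. Wnt1-Cre acts in the dorsal midbrain and the neural crest and reaches cells of the hindbrain and cranial ganglia, so it does not mark all cells of the tissue, and the transgene itself raises Wnt1. The deposited values were log2 values that had been normalized between libraries, with no read counts among them, so that the depth of the libraries is unknown. The labels give neither litters nor sexes, so the p-values measure the spread between these fetuses alone. Gpr161 was at 11.77, 11.88 and 11.88 in the floxed control, the Cre control and the libraries labelled cKO (group means of log2 values). Its log2 fold change in the cKO over the floxed control was 0.11 (adjusted p = 0.223 by limma), so it was not lower there, and the table does not separate its exons. The genotypes below therefore rest on the labels. All 8 midbrain markers, among them En1, En2, Otx2 and Pax7, lay above the minimum.

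Proneural factors are transcription factors that commit a dividing neural progenitor to become a neuron. They bind DNA as heterodimers with E-proteins at short motifs called E-boxes. They switch on genes of the Notch pathway, such as the ligand Dll1 and its relative Dll3. They also start a cascade in which later bHLH factors carry the daughter cell through differentiation. Hes and Hey factors, the effectors of Notch, repress proneural genes in neighbouring progenitors, and Id proteins capture E-proteins. In the midbrain, Neurog1 and Neurog2 act mainly in progenitors of excitatory neurons, and Atoh1 is best known from the rhombic lip of the hindbrain. Neurod2 and Neurod6 are factors of postmitotic excitatory neurons.

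The 250 bases before the start site are shown for the 2 factors that rose and the 2 that fell most in the cKO, as RefSeq gives them for GRCm38.p6. They are read 5′ to 3′ on the strand of the gene, and capitals mark E-boxes, searched as CANNTG, which reads the same on both strands. The windows are chr13:56252181-56252430 (minus strand) for Neurog1, chr3:127632886-127633135 (plus strand) for Neurog2, chr11:98329646-98329895 (minus strand) for Neurod2 and chr6:55681264-55681513 (minus strand) for Neurod6.
Neurog1: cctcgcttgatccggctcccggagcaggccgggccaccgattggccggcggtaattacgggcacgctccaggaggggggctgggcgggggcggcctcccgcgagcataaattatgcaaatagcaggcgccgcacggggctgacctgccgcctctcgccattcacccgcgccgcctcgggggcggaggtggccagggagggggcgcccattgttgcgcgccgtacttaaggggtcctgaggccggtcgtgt
Neurog2: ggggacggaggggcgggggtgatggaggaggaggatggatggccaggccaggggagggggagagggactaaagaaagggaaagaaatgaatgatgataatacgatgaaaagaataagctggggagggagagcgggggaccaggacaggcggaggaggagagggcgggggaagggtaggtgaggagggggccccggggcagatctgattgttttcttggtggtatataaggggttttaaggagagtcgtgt
Neurod2: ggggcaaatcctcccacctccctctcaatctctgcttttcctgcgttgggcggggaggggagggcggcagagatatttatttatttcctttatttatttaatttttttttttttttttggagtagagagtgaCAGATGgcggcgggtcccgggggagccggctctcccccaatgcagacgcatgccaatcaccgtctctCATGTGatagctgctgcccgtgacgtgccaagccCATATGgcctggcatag
Neurod6: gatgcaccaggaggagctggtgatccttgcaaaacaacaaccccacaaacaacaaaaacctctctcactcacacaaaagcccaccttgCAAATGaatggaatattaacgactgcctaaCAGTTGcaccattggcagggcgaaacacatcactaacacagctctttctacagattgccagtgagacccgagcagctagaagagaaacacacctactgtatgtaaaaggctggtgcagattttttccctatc
Neither Neurog1 nor Neurog2 held a CANNTG in this window. Neurod2 held 3, CAGATG at 118 bases before the start, CATGTG at 51 and CATATG at 17. Neurod6 held 2, CAAATG at 162 and CAGTTG at 132 bases before the start. Promoter sequences matched 8 members, of which Neurod4 had 2 start sites. Besides Neurod2 and Neurod6, Nhlh1 held CAGATG at 203 bases and Neurod1 held CATATG at 242 bases before the start, and no window of Atoh1 or Neurod4 held a CANNTG. Among 32851 promoter windows of the same length, 66.2% held a CANNTG, 31.8% held at least 2 and 12.2% at least 3, and 14.4% held CAGATG or its complement. These matches are letters in a window, and no binding was measured.

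In the floxed control the 9 genes were expressed at widely different levels. Per kilobase of exon, on the linear scale, Neurog2 was the highest at 759 ± 36.3 (SD, n = 3), followed by Nhlh1, a factor of newborn neurons, at 481 ± 25.6. Neurod1, which drives terminal differentiation, was at 323 ± 34.8 and Neurod6 at 267 ± 31.4, and their spreads met. Neurog1 (236 ± 16), Neurod2 (232 ± 21.6) and Neurod6 did not differ beyond their spread, and Bhlhe22, a factor of subtype identity and axon projection, was at 190 ± 12.7. Atoh1 (72.2 ± 6.47) and Neurod4 (65.8 ± 1.64) were the lowest and did not differ from each other beyond their spread. In the cKO the order changed. Neurog2 (984 ± 62.8) and Nhlh1 (464 ± 28.6) stayed at the top, Neurog1 came to 302 ± 26.4, beside Neurod1 at 277 ± 0.175, and Neurod6 (142 ± 14.1) and Neurod2 (102 ± 1.08) came below Bhlhe22 at 161 ± 14.1. The spreads of Bhlhe22 and Neurod6 met there, and Atoh1 (53.7 ± 5.57) came below Neurod4 (72.4 ± 5.37).

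The comparison of the cKO with the floxed control asks how the factors differ between fetuses that lost Gpr161 in the Wnt1 lineage and fetuses without Cre. Neurog1 and Neurog2 were higher in the cKO by 0.35 and 0.37 on the log2 scale, Neurod2 and Neurod6 were lower by 1.18 and 0.91, and Atoh1, Neurod1 and Bhlhe22 were lower by 0.22 to 0.43. At an adjusted p under 0.05 in limma, 7 of the 9 factors passed, 2 higher and 5 lower. Of all genes tested, 38.3% passed, 19.5% higher and 18.8% lower, so that passing by itself was common. With a fold change over 1.5 as well, the limit for a DEG here, 2 of 9 factors remained, Neurod2 and Neurod6, against 2.92% of all genes. Median log2 fold changes were 0.35 over the early and -0.23 over the late factors, and 0.01 over all genes, given as a description with no test. In the plot of values by library, the cKO points of Neurog1 and Neurog2 lie above the floxed control points, and those of Neurod2 and Neurod6 below.

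**Figure D1:**
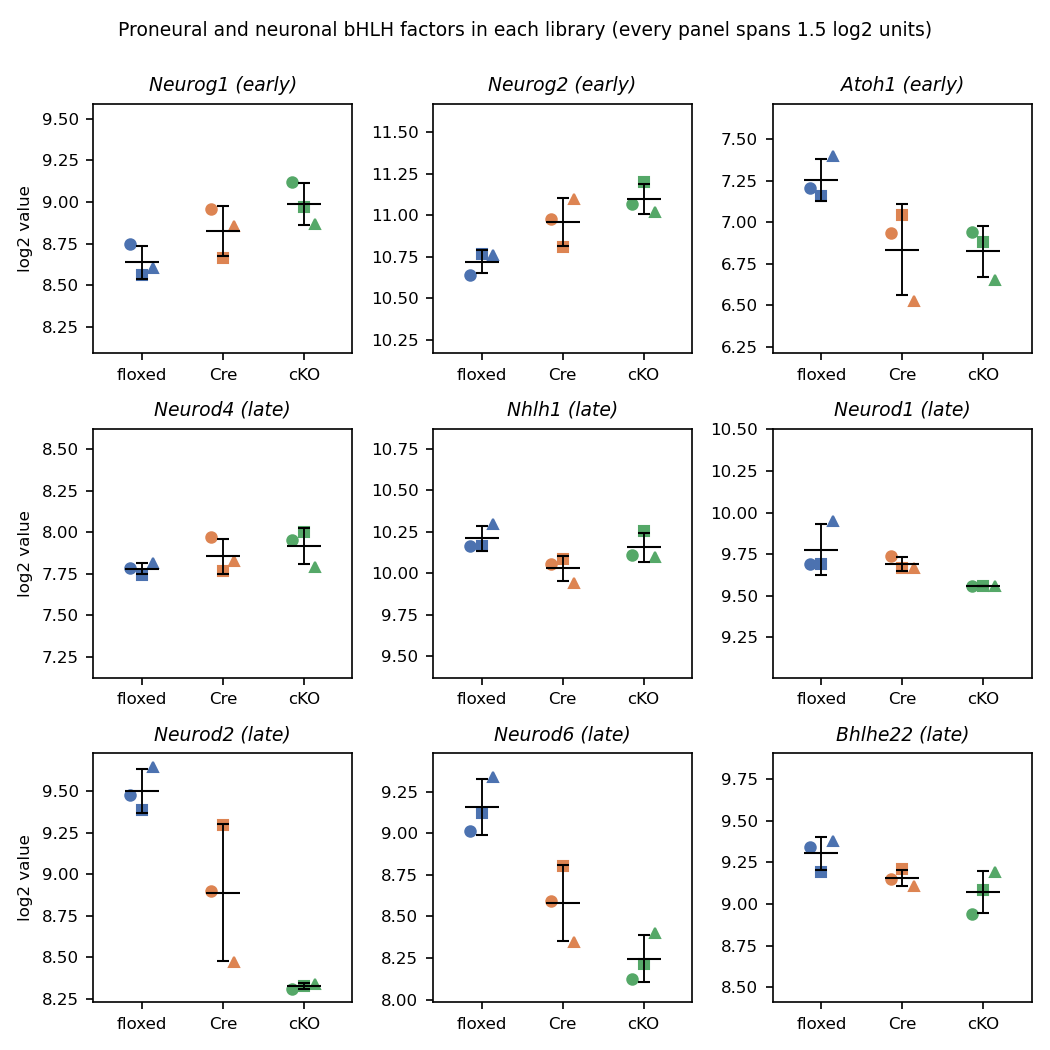
Log2 value of each of the 9 bHLH factors in the 9 libraries, by genotype (floxed, floxed control). Circles, squares and triangles are replicates 1, 2 and 3, horizontal lines the group means and bars 1 SD (n = 3). Neurod2 was between 8.31 and 8.34 in the 3 cKO libraries and between 9.39 and 9.65 in the floxed control, with the Cre control spread between them.

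Neurog1 (chromosome 13, 56250478 to 56252163, minus strand, GRCm38) was at 8.75, 8.56 and 8.60 in the floxed control, 8.96, 8.66 and 8.86 in the Cre control and 9.12, 8.97 and 8.87 in the cKO. Every cKO library was above every floxed control library, while the Cre control overlapped with both. The log2 fold change of the cKO against the floxed control was 0.35 (95% interval 0.15 to 0.55, adjusted p = 0.0125 by limma). Without cKO replicate 1 it was 0.28 and did not pass (adjusted p = 0.0531 by limma). Neurog2 (chromosome 3, 127633135 to 127635631, plus strand) was at 10.64, 10.77 and 10.76 in the floxed control, 10.98, 10.81 and 11.10 in the Cre control and 11.07, 11.20 and 11.02 in the cKO. Both groups with Cre lay above the floxed control in all libraries. Its log2 fold change was 0.37 (95% interval 0.21 to 0.54, adjusted p = 0.00391 by limma), a linear fold of 1.30.

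Atoh1 (chromosome 6, 64729125 to 64731245, plus strand), the proneural factor of rhombic lip derivatives, went the other way among the early factors. It was at 7.21, 7.16 and 7.40 in the floxed control, 6.94, 7.04 and 6.52 in the Cre control and 6.94, 6.88 and 6.65 in the cKO. Both groups with Cre lay below the floxed control, and they overlapped with each other. The log2 fold change of the cKO against the floxed control was -0.43 (standard error 0.131, adjusted p = 0.0269 by limma). The call was lost without floxed control replicate 1 or 3 or cKO replicate 2 or 3, with adjusted p between 0.0518 and 0.0999.

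Among the late factors, Neurod2 fell most. Neurod2 (chromosome 11, 98325415 to 98329648, minus strand) was at 9.48, 9.39 and 9.65 in the floxed control, 8.90, 9.29 and 8.47 in the Cre control and 8.31, 8.33 and 8.34 in the cKO. The 3 genotypes did not overlap, and the Cre control spanned most of the distance between the others. In the cKO its linear level was 0.443 of that in the floxed control (log2 fold change -1.18, 95% interval -1.54 to -0.81, adjusted p = 8.89e-04 by limma). Neurod6 (chromosome 6, 55677822 to 55681263, minus strand), a close relative, was at 9.01, 9.12 and 9.34 in the floxed control, 8.60, 8.80 and 8.35 in the Cre control and 8.12, 8.21 and 8.40 in the cKO. The cKO and the floxed control did not overlap, and the third replicate of the Cre control lay within the range of the cKO. Its linear level in the cKO was 0.531 of that in the floxed control (log2 fold change -0.91, 95% interval -1.19 to -0.64, adjusted p = 8.0e-04 by limma). The calls of Neurog2, Neurod2 and Neurod6 were kept in all 16 alternative fits.

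Neurod1 and Bhlhe22 fell less. Neurod1 (chromosome 2, 79452521 to 79456751, minus strand) was at 9.69, 9.69 and 9.95 in the floxed control, 9.74, 9.66 and 9.67 in the Cre control and 9.56, 9.56 and 9.56 in the cKO. All cKO values were below all others, by a narrow margin. The log2 fold change against the floxed control was -0.22 (standard error 0.068, adjusted p = 0.0292 by limma). It was -0.13 without floxed control replicate 3, the highest library, and did not pass (adjusted p = 0.0736). Nor did it pass without cKO replicate 1, 2 or 3, with adjusted p between 0.0676 and 0.0747. Neurod1 overlaps Cerkl on the same strand and the lincRNA Gm26755 on the opposite strand, so its value could hold reads of these genes. Bhlhe22 (chromosome 3, 18054174 to 18057517, plus strand) was at 9.35, 9.19 and 9.38 in the floxed control, 9.15, 9.21 and 9.11 in the Cre control and 8.94, 9.08 and 9.19 in the cKO. The highest cKO library lay just under the lowest floxed control library. The log2 fold change was -0.24 (standard error 0.0732, adjusted p = 0.0285 by limma), and the call was lost without floxed control replicate 1 or 3 or cKO replicate 1 or 2, with adjusted p between 0.0643 and 0.107.

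Neurod4 and Nhlh1, the late factors that are also on at cell cycle exit, did not pass. Neurod4 (chromosome 10, 130268152 to 130280240, minus strand) was at 7.78, 7.74 and 7.82 in the floxed control, 7.97, 7.77 and 7.83 in the Cre control and 7.95, 8.002 and 7.79 in the cKO. The 3 groups overlapped, with a log2 fold change of 0.14 in the cKO against the floxed control (95% interval -0.03 to 0.30, adjusted p = 0.165 by limma). Nhlh1 (chromosome 1, 172052292 to 172057573, minus strand) was at 10.17, 10.17 and 10.30 in the floxed control, 10.06, 10.09 and 9.94 in the Cre control and 10.11, 10.26 and 10.10 in the cKO. The cKO overlapped with the floxed control (log2 fold change -0.05, 95% interval -0.19 to 0.08, adjusted p = 0.510 by limma). Without these 2 genes the median of the late factors was -0.58. The late factors left are those that passed as lower, so this median had to be lower.

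The number of factors past the test was 4 in place of 7 without floxed control replicate 3, without cKO replicate 1 or without cKO replicate 2. In these fits 3746, 3606 and 4214 of all genes passed in turn, in place of 5380. The cKO and floxed control values did not overlap for 7 of the 9 factors, 2 higher and 5 lower, while 57.1% of all genes did not overlap. With 3 libraries against 3, an exact permutation test of a single gene cannot give a p under 0.10, so the calls rest on the spread that limma shares across genes.

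The comparison of the cKO with the Cre control isolates the second floxed allele among fetuses that all carried Wnt1-Cre. None of the 9 factors passed here in limma, against 9.72% of all genes, and 2, Neurod2 and Neurod6, had an unadjusted p under 0.05, against 29.3% of all genes. Neurod2 was lower by 0.56 on the log2 scale (95% interval -0.92 to -0.20, adjusted p = 0.0570 by limma), and every cKO library lay below every Cre control library. A single Cre control library decided this call. Without Cre control replicate 3, which at 8.47 came closest to the cKO, the difference was -0.77 and passed (adjusted p = 0.018 by limma). Without Cre control replicate 2, the highest of its group, it was -0.36 (adjusted p = 0.110 by limma). Over the 16 alternatives its adjusted p was between 0.018 and 0.168. Neurod6 was lower by 0.34 (95% interval -0.61 to -0.06, adjusted p = 0.105 by limma). For Neurog1 and Neurog2 the differences were 0.16 (95% interval -0.04 to 0.36) and 0.14 (95% interval -0.03 to 0.30), and without Cre control replicate 2 they were 0.08 and 0.06. Atoh1 differed by -0.01, with a 95% interval from -0.30 to 0.28. Of the 9 factors, 3 did not overlap between the cKO and the Cre control, Nhlh1 being higher and Neurod1 and Neurod2 lower, against 31.5% of all genes. Median differences were 0.14 over the early and -0.11 over the late factors, and 0.01 over all genes. The early median was 0.08 without Cre control replicate 2 or without cKO replicate 2.

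The comparison between the controls sets fetuses with Wnt1-Cre, 1 floxed and 1 wild-type allele against fetuses with 2 floxed alleles and no Cre, so the transgene and the loss of 1 allele in its lineage cannot be told apart. No factor passed in limma, against 0.057% of all genes, and 5 had an unadjusted p under 0.05, against 17.5% of all genes. These were Neurog2 (0.24 higher in the Cre control, 95% interval 0.07 to 0.41), Atoh1 (-0.42, 95% interval -0.71 to -0.13), Neurod2 (-0.61, 95% interval -0.98 to -0.25), Neurod6 (-0.58, 95% interval -0.85 to -0.30) and Nhlh1 (-0.18, 95% interval -0.32 to -0.05). Without Cre control replicate 3, Atoh1 was at -0.27 and Neurod2 at -0.41. The same 5 genes did not overlap between the controls, 1 higher and 4 lower, against 22.8% of all genes. Adjusted p ranged from 0.140 for Neurod6 to 0.604 for Neurod4. Median differences were 0.19 over the early and -0.17 over the late factors, and -0.001 over all genes. Within the Cre control, the third replicate was the highest in Neurog2 and the lowest in Atoh1, Neurod2, Neurod6, Bhlhe22 and Nhlh1. Each pair of these 3 comparisons shares a group of libraries, so they are not independent, and the plot of fold changes sets them side by side.

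**Figure D2:**
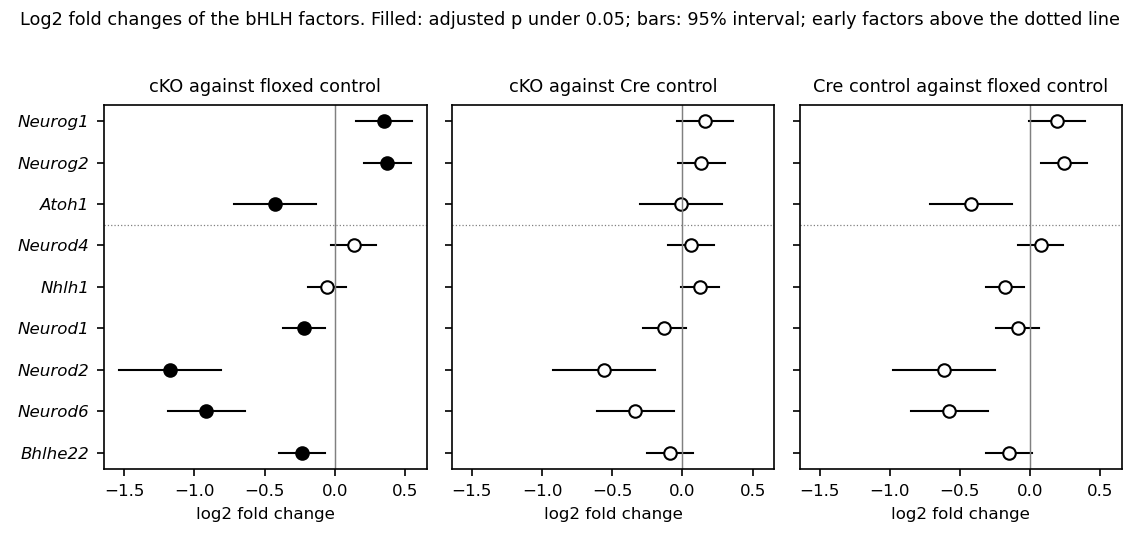
Log2 fold change of each bHLH factor in the 3 comparisons, with 95% intervals as bars and filled circles for an adjusted p under 0.05 by limma. In the cKO against the floxed control 7 circles are filled, and in the other panels none.

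Genes of progenitors and of neurons, the stages in which these factors are expressed, also differed between the genotypes. All 10 pan-neuronal genes, such as Tubb3, Dcx and Stmn2, passed as lower in the cKO against the floxed control, with a median of -0.46 on the log2 scale. Their summed linear value was 142559 to 153174 in the floxed control, 113980 to 141119 in the Cre control and 100478 to 112970 in the cKO. Of the 8 genes of cycling progenitors, 7 passed as higher, Mki67, Top2a, Ccnb1, Sox2, Nes, Vim and Hes5, and Pax3 passed as lower (median 0.39). Their sum was 70754 to 72921 in the floxed control, 74006 to 78951 in the Cre control and 88061 to 98715 in the cKO. Against the Cre control, 4 of the 10 pan-neuronal genes passed as lower and 4 of the 8 progenitor genes as higher. Without cKO replicate 1, or with only the 6 libraries compared, these counts were 0 and 1, and no pan-neuronal gene passed when cKO replicate 2 or either of Cre control replicates 2 and 3 was left out. In bulk tissue, fewer cells of a type and less RNA per cell cannot be told apart.

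The factors were therefore also set against these lists within each library, as a description with no test. The mean log2 value of the pan-neuronal genes differed from the floxed control by -0.46 in the cKO and by -0.21 in the Cre control. Relative to that mean, Neurod2 was at -0.72 and Neurod6 at -0.46 in the cKO, so both differed by more than the pan-neuronal genes did. Neurod1 was at 0.24, Bhlhe22 at 0.22 and Atoh1 at 0.03, so their own differences were no larger than that of the neuronal genes. Nhlh1, Neurod4, Neurog1 and Neurog2 were at 0.40, 0.59, 0.81 and 0.83. The mean of the progenitor genes was higher by 0.31 in the cKO. Relative to it, Neurog1 was at 0.04 and Neurog2 at 0.07, close to 0, and Atoh1 was at -0.74. In the Cre control, Neurod2 was at -0.40 and Neurod6 at -0.37 relative to the pan-neuronal genes, and replicate 3 weighed most in both means. By replicate, Neurod2 was at -0.22, -0.05 and -0.94 and Neurod6 at -0.182, -0.195 and -0.72. The second Neurod2 value lay within the floxed control range, whose lowest value was -0.051. The lowest floxed control value of Neurod6 was -0.159.

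**Figure D3:**
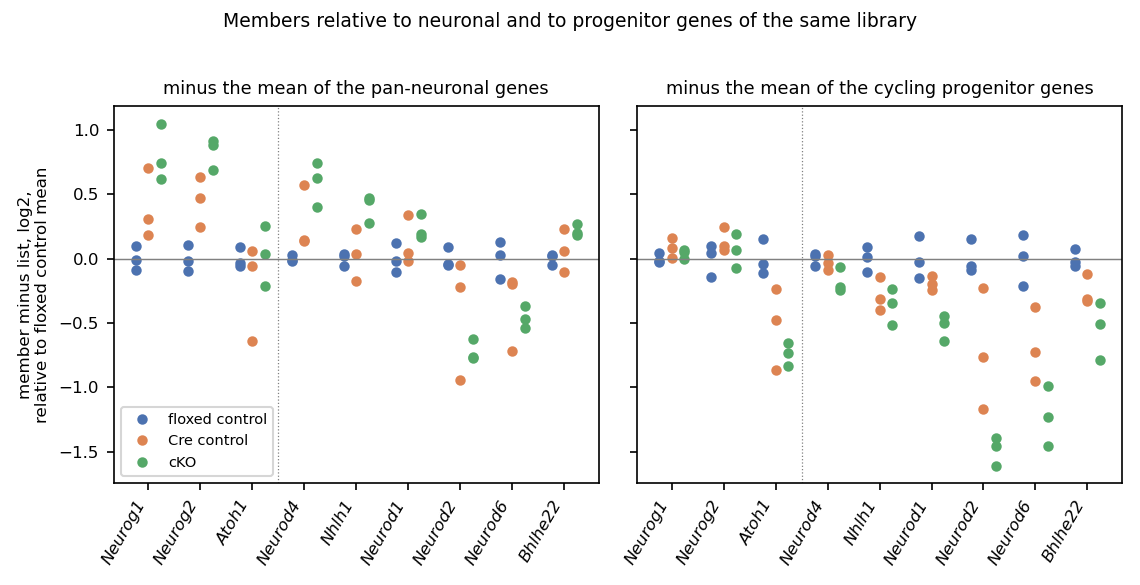
Log2 value of each bHLH factor minus the mean log2 value of the 10 pan-neuronal genes (left) or the 8 cycling progenitor genes (right) of the same library, relative to the floxed control mean. Each point is a library. All cKO points of Neurod2 and Neurod6 lie below 0 on the left, and those of Neurog1 and Neurog2 lie near 0 on the right.

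Some of these factors are also expressed in tissue outside the midbrain, and markers of such tissue were examined. Of 6 telencephalic genes, 4 were tested. Emx1, a defining gene of the dorsal telencephalon, lay below the minimum, and Tbr1 was near it at a mean of 5.18 in the floxed control. The telencephalic sum was 4831 to 5352 in the floxed control, 4750 to 5210 in the Cre control and 3701 to 3894 in the cKO. In the cKO against the floxed control 2 telencephalic genes passed as lower, Lhx2 and Bcl11b, which are also genes of the midbrain. Of 7 genes of the rhombic lip and cerebellum, 4 passed as lower, Barhl1, Lhx9, Zic1 and Hoxa2. Whether the RNA of these 4 genes came from the rhombic lip or from the midbrain itself was not measured. Pax6, Gbx2 and Lmx1a gave no call, with log2 fold changes of 0.025, 0.09 and -0.23. Over all 7, the sum was 14560 to 15408, 14286 to 14932 and 10654 to 11750 in the floxed control, Cre control and cKO. Zic1 and Lhx9 weighed most in it, with mean log2 values of 12.92 and 11.80 in the floxed control, and Hoxa2 least, at 6.62. Of 5 sensory ganglion genes in the table, 2 passed as lower, Prph among them, and the sum of the 5 was 1057 to 1585, 1059 to 1117 and 891 to 1039. Of 8 midbrain genes, 5 passed in the cKO against the floxed control, Pax7, Meis2, Pou4f1 and Gata3 as lower, at -0.48, -0.57, -0.60 and -0.31, and Gata2 as higher, at 0.24. The midbrain sum was 19241 to 22716 in the floxed control, 19865 to 21135 in the Cre control and 17435 to 19297 in the cKO. Of all genes tested, 18.8% passed as lower in the cKO against the floxed control. No gene of these lists was at 0, and their part in the differences of Atoh1, Neurod2 and Neurod6 was not tested.

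Hoxa2 and Prph were singled out after their values were seen, because their Cre control values, like those of Atoh1, Neurod2 and Neurod6, all lay below the floxed control. Hoxa2, a homeobox gene of the hindbrain, was at 6.48, 6.50 and 6.88 in the floxed control, 5.58, 6.13 and 5.53 in the Cre control and 5.82, 5.80 and 5.68 in the cKO. Prph, a filament of peripheral neurons, was at 8.15, 8.67 and 8.998 in the floxed control, 8.03, 7.92 and 7.81 in the Cre control and 7.67, 7.86 and 7.79 in the cKO. For both genes the groups with Cre lay below the floxed control and overlapped with each other. Hoxa2 fell by 0.85 in the cKO compared with the floxed control (limma, adjusted p = 0.00273) and differed by 0.02 from the Cre control (adjusted p = 0.947). For Prph these differences were -0.83 (adjusted p = 0.00448) and -0.14 (adjusted p = 0.603). Between the controls neither gene passed in limma (adjusted p = 0.113 for Hoxa2 and 0.145 for Prph), but Hoxa2 did without Cre control replicate 2 (adjusted p = 0.0264) and Prph without floxed control replicate 1 (adjusted p = 0.0214). How much hindbrain or ganglion each sample held was not measured. Of 6 erythroid genes, 4 passed as higher in the cKO against the floxed control, with sums of 100555 to 164906 in the floxed control, 119409 to 139931 in the Cre control and 144394 to 296638 in the cKO. None of them passed without floxed control replicate 1, cKO replicate 1 or cKO replicate 3. Of 3 genes of pineal and retina, where Neurod1 and Neurod4 are active, Crx and Rax lay below the minimum, and the sum of the list was 231 to 254, 208 to 237 and 191 to 229.

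**Figure D4:**
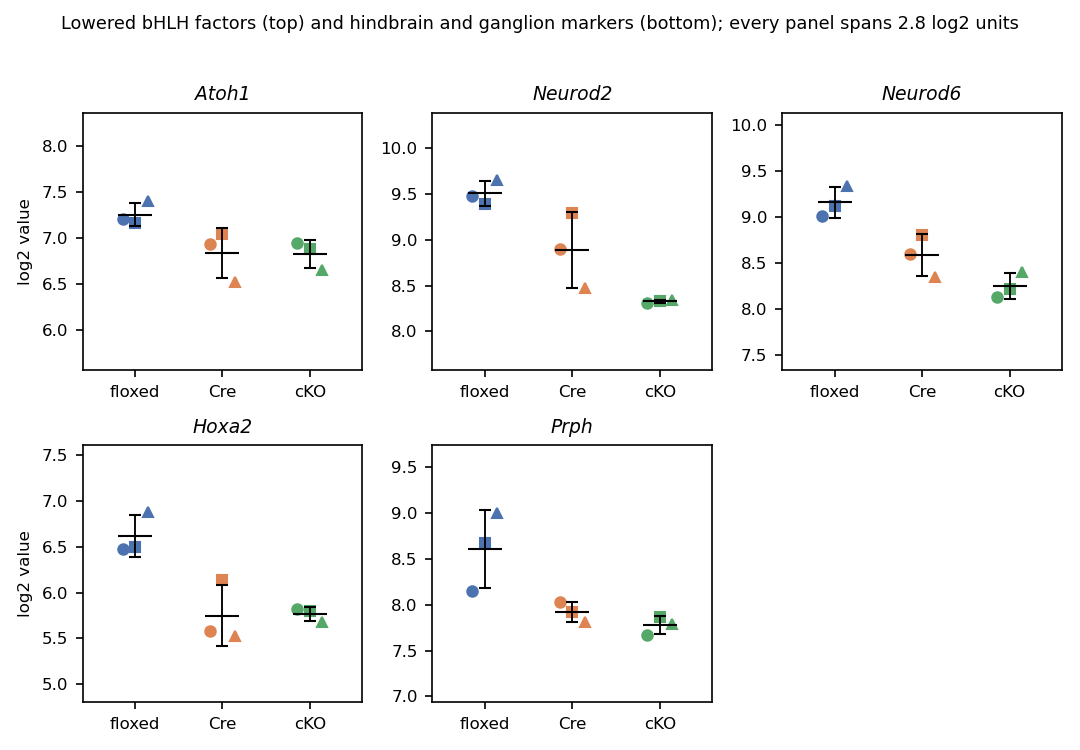
Log2 values of Atoh1, Neurod2 and Neurod6 (top) and of the hindbrain gene Hoxa2 and the ganglion gene Prph (bottom) in the 9 libraries, by genotype. Circles, squares and triangles are replicates 1, 2 and 3, lines are means and bars 1 SD (n = 3). For Hoxa2 and Prph the Cre control and the cKO overlap and lie below the floxed control, while Neurod2 is lowest in the cKO.

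Of 12 other neural bHLH factors, 10 were tested, with Atoh7 and Neurog3 below the minimum, and their median log2 fold change in the cKO against the floxed control was 0.10. Olig3, a progenitor factor, rose by 0.31 (adjusted p = 0.0329 by limma) and was 0.65 above the Cre control (adjusted p = 0.00814), while Olig1 fell by 0.34 against the floxed control (adjusted p = 0.0380). The calls of Olig1 and Olig3 against the floxed control were each lost in some alternatives, and none of the 10 genes passed without floxed control replicate 1, without cKO replicate 1 or without cKO replicate 2. The call of Olig3 against the Cre control was kept in all 16.

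The genes that partner or block the bHLH factors were next. Of 3 E-proteins, Tcf3 rose by 0.31 (adjusted p = 0.00211 by limma), Tcf4 fell by 0.21 (adjusted p = 0.0326) and Tcf12 was at 0.06 (adjusted p = 0.195). The call of Tcf4 was lost in 5 alternatives that left out a library, with adjusted p up to 0.120. Of 4 Id genes, which block E-proteins, Id3 rose by 0.33 (adjusted p = 0.00221) and Id4 fell by 0.41 (adjusted p = 0.00183), in all 16 alternatives. Against the Cre control, no E-protein passed, with Tcf3 at an adjusted p of 0.0645 (0.00381 without Cre control replicate 1). Id2 passed as higher by 0.25 (adjusted p = 0.0332) and Id4 as lower by 0.34 (adjusted p = 0.0191), and neither Id gene passed without Cre control replicate 3 or without cKO replicate 1.

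Of 7 Hes and Hey repressors, 6 passed as higher in the cKO against the floxed control and none as lower, with a median of 0.32. Of all genes tested, 19.5% passed as higher. Hes3, a repressor of the isthmus and of early progenitors, rose by 1.52 (adjusted p = 1.27e-04 by limma), Heyl by 0.38 (adjusted p = 0.00386), Hey2 by 0.32 (adjusted p = 0.0114) and Hes1 by 0.29 (adjusted p = 0.00362), each in all 16 alternatives. Hes5 rose by 0.34 and did not pass without cKO replicate 1 (adjusted p = 0.0593). Hey1 rose by 0.16, and its call was lost in 7 alternatives, namely with libraries centred on their medians, with quantile normalization, without floxed control replicate 1 or 3 and without each cKO replicate in turn (adjusted p up to 0.128). Hes6, which is a target of proneural factors and does not act as the other repressors do, was at 0.09 (adjusted p = 0.229). Against the Cre control 2 passed as higher, Hes3 by 0.99 (adjusted p = 0.00183) and Hey2 by 0.30 (adjusted p = 0.0456), and the median was 0.15. Only Hes3 kept this call in all 16 alternatives.

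The 28 known targets of proneural factors examined include Neurod1, Neurod4, Nhlh1 and Hes6. In the cKO against the floxed control, 4 passed as higher and 11 as lower (median -0.10). Of all genes tested, 19.5% passed as higher and 18.8% as lower. Dcx, Elavl3 and Elavl4 are also in the pan-neuronal list, so their falls are counted in both lists. The stage at which each target is expressed was not measured here. Btg2, an antiproliferative gene of progenitors about to divide into neurons, rose by 0.50 (adjusted p = 5.80e-04 by limma). Mfng, a modifier of Notch, rose by 0.38 (adjusted p = 0.00164) and Gadd45g by 0.32 (adjusted p = 0.00878). Dll3, a relative of the Notch ligand Dll1, rose by 0.25 (adjusted p = 0.00669). Dll1 was at 0.20 (adjusted p = 0.0586, or 0.0209 to 0.208 over the alternatives, of which 13 also gave no call) and Rnd2, a GTPase of migrating neurons, at 0.04 (adjusted p = 0.632). Ebf3, a factor of differentiating neurons, fell by 0.74 (adjusted p = 3.95e-04), and Ebf1 and Ebf2 by 0.48 and 0.44. Dcx, a microtubule protein of young neurons, fell by 0.64 (adjusted p = 0.00125), Barhl1, a homeobox target of Atoh1, by 0.52 (adjusted p = 0.00226) and Myt1 by 0.33 (adjusted p = 0.00516). The others that fell were Cbfa2t3, Prdm8, Elavl3, Elavl4 and Neurod1. Calls of 11 of the 15 genes were kept in all 16 alternatives, and those of Cbfa2t3, Prdm8, Elavl4 and Neurod1 were not.

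Against the Cre control, 5 of the 28 targets passed, against 9.72% of all genes. Btg2 was higher by 0.28 (adjusted p = 0.0259 by limma), and Barhl1, Ebf3, Dcx and Myt1 were lower, at -0.51, -0.48, -0.35 and -0.33. Only Barhl1 passed in all 16 alternatives (adjusted p up to 0.0475), and 1 of the 28 passed without Cre control replicate 3 or without cKO replicate 1. Atoh1 differed by -0.01 in this comparison, whereas between the controls Barhl1 was at -0.01 and Atoh1 at -0.42. Between the controls, no gene of these lists passed in limma, and Hes3 did without Cre control replicate 1 (adjusted p = 0.045). The plot of partners and targets shows the fold changes in these 5 lists.

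**Figure D5:**
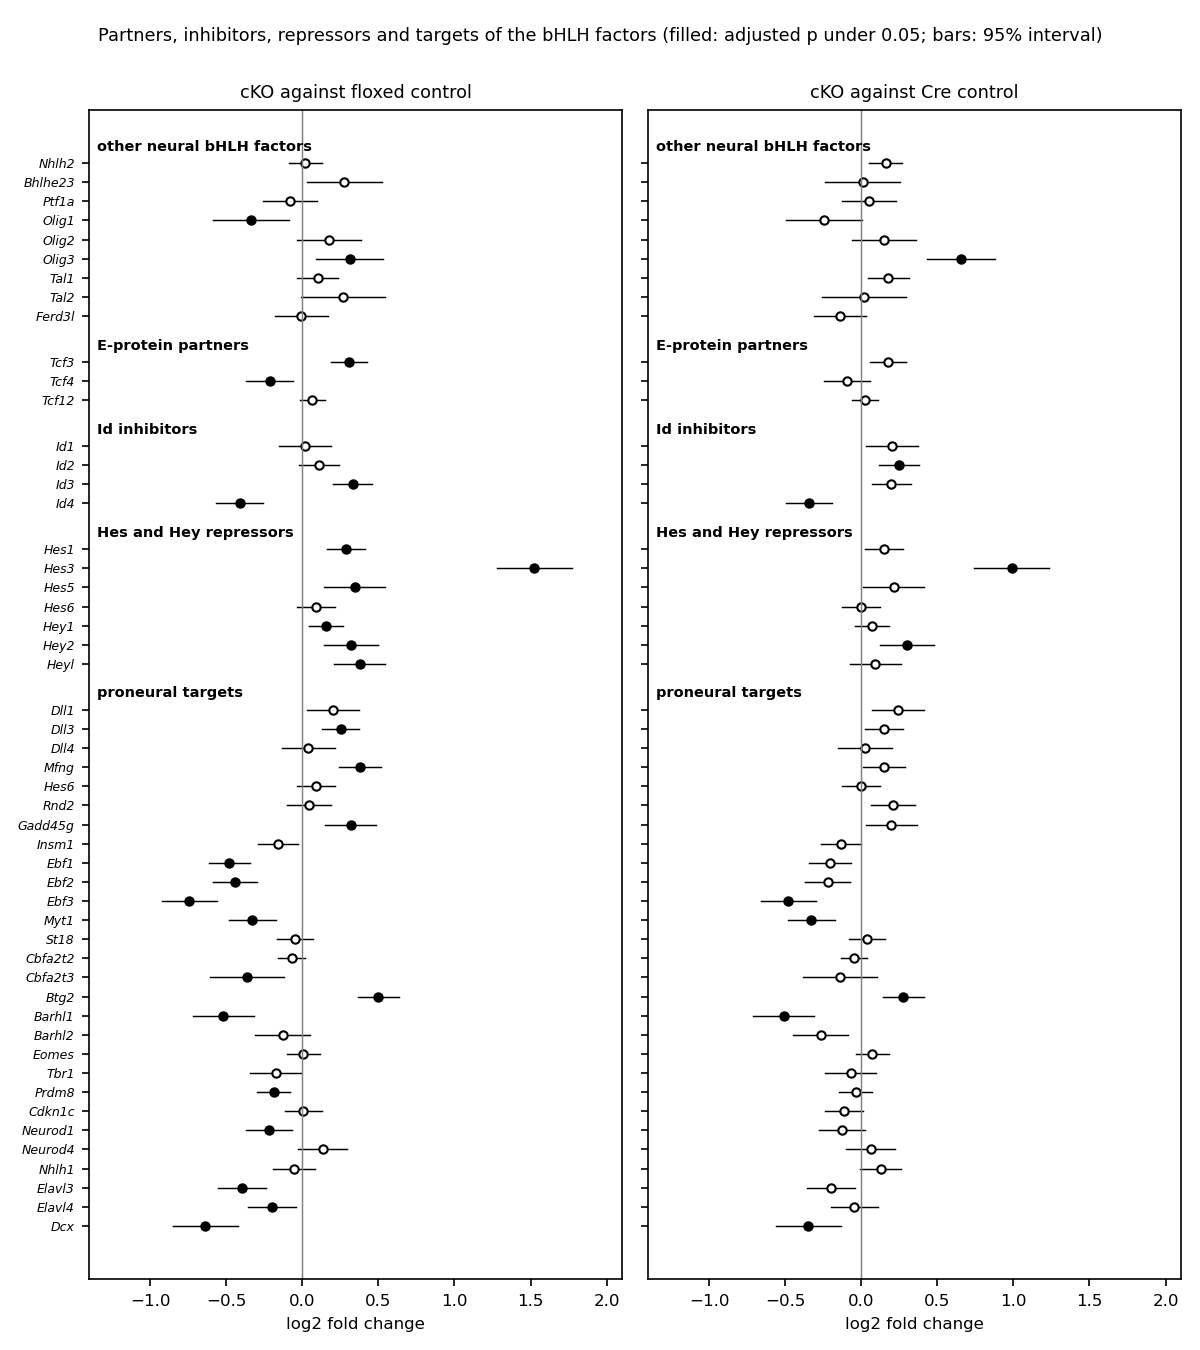
Log2 fold change in the cKO against the floxed control (left) and the Cre control (right) for other neural bHLH factors, E-proteins, Id inhibitors, Hes and Hey repressors and targets of proneural factors. Bars are 95% intervals and filled circles an adjusted p under 0.05 by limma, for the genes reported here. Of the 7 Hes and Hey repressors, 6 are filled to the right of 0 on the left panel, and Ebf3 and Dcx are among the lowest targets.

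The genes whose values followed each factor most closely over the 9 libraries are given as a description, since the 3 genotypes shape every such correlation. For Neurog1 these were Pif1 (Pearson's r = 0.990), Cbx1 (0.988) and Rtkn2 (0.976), and for Neurog2 they were Prps1l3 (0.978), Bcl10 (0.961) and Tmem47 (0.958). Pif1 is a DNA helicase and Cbx1 a heterochromatin protein. For Neurod2 they were Rab4b (0.978), Skor2 (0.976) and Tshz1 (0.972), and for Neurod6 Ankrd42 (0.978), Foxo6 (0.975) and the neurofilament gene Nefl (0.974). Atoh1 was followed by Meis1 (0.926), Hoxa2 (0.907) and Btbd11 (0.907), of which Meis1 and Hoxa2 are homeobox genes active in the hindbrain. The closest genes to Neurod4, Bhlhe22 and Nhlh1 were Larp4 (0.959), Lrp3 (0.990) and Nckap5 (0.921).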

How the data were processed

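Poly-A selected midbrain RNA of 9 fetuses was sequenced by the authors. The submitters' notes name FastQC 0.10.1, kallisto 0.46.1, DESeq2 and mm10. The deposited table holds log2 values that the authors had normalized. The transformation is not given in the sources used here. It has 27360 rows, 5764 without a gene name. Named genes that reached 1 cpm (linear values) in 3 or more libraries entered the tests, after 118 repeated rows were dropped, which left 14029 genes. The minimum is 4.73 to 4.78 on the log2 scale.

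A mean per genotype was fitted to all 9 libraries with limma 3.58.1 in R 4.3.3 (eBayes with a trend), with two-sided tests and Benjamini-Hochberg adjustment over all genes. The fit was run on simulated data, drawn as independent normal values from the means and spreads of the genes. This checks the code and does not measure error rates in these libraries. In 16 alternative fits the filter, the normalization, the trend, the libraries fitted, the replicate block and each library in turn were changed. How often the genes of the other lists kept their call was counted over the same fits.

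The 9 factors, the gene lists and the rule for genes named (all factors, list genes that passed against either control, Dll1 and Rnd2, and the 3 most correlated genes of each factor) were chosen with earlier results of these data known. Some genes under this rule are not reported here. Genes outside it are named as marker genes or as said. Positions are from GENCODE for GRCm38, and promoters from RefSeq for GRCm38.p6.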

Additional observations from a re-analysis of the deposited data

How the results depend on the processing

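Results were recomputed in 16 alternative fits. In the cKO against the floxed control, 7 factors passed in every fit that kept all libraries, and 2 did with a fold change over 1.5 as well (410 of all genes in place of 5380). Leaving out each library in turn gave 4 to 7 factors there, and 0 to 1 against the Cre control. Of all genes, 1363 passed in the cKO against the Cre control, 873 with no filter on low values, 437 with only the 6 libraries compared, 79 with a fold change over 1.5, and 237 to 3292 without each library in turn. Between the controls 8 passed, 5 with no filter, 13 without a trend, 3 with only the 6 libraries, 4 with a fold change over 1.5, and 1 to 57 without each library in turn. No factor passed between the controls in any alternative. The median of the early factors between the controls, 0.19, was 0.12 to 0.27 without each library in turn. Without Neurod4 and Nhlh1, the median of the late factors was -0.58, -0.23 and -0.36 in the cKO against the floxed control, the cKO against the Cre control and the Cre control against the floxed control, in place of -0.23, -0.11 and -0.17. Neurod4 and Nhlh1 were the late factors that did not pass in the cKO against the floxed control. Leaving them out therefore had to lower that median. No result changed direction past the test.

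Around the group means, same-numbered libraries correlated across genes at -0.0272 to 0.260 (median 0.102). Those with different numbers correlated at -0.282 to 0.161 (median -0.0526), so this does not settle whether the numbers mark pairs. The labels name no pairs, and the main fit took none. With the replicate block, 7 factors passed in the cKO against the floxed control and 0 in the other comparisons, and 5683, 1774 and 9 of all genes passed in turn. Dll1 passed in the cKO against either control with the block and Tcf3 against the Cre control, where 10 proneural targets and 7 progenitor genes passed in place of 5 and 4. Depth could not be weighed, since no counts were given, and the 3 libraries of a group limit the precision.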
